A study of Mus musculus with 2 samples.

Results

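The genes described here are the 4 Id genes, Id1, Id2, Id3 and Id4, and the 2 inhibitory Smads, Smad6 and Smad7. They were taken by gene symbol from the feature list of the files, which held all 6 of them among 32286 features, and were read as raw counts summed within each cell class of each library. The study profiled flank skin of mouse embryos at E13.5 by single-cell RNA sequencing on the 10x Genomics 3′ platform. The mutant library came from embryos that carried Axin2CreER and the Rosa-lox-STOP-lox-SmoM2YFP allele, so that an active form of Smoothened, the transducer of Hedgehog signals, fused to YFP is expressed after Cre recombination in cells with Axin2 promoter activity; the library's title calls the mutant dermal. The control library came from littermates, and its title names the SmoM2YFP allele. Each library pooled 2 to 3 embryos of a genotype, so no embryo can be told from another and each group holds 1 library. There is therefore no replicate check on any difference below, no p-value is given, and every 95% interval covers counting error only. The agent and the day of Cre induction are not given in the sources used here.

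The genotype entry of each library contradicts its title, and the groups here follow the titles. In dermal cells eYFP had 924 counted molecules in the library titled mutant and 22 in the library titled control. Ptch1, a Hedgehog receptor and target gene, stood at 266 CPM (counts in each 1e+06 molecules of the class) in dermal cells of the library titled mutant and 5.93 CPM in those of the library titled control, so the reporter and the pathway's target both went with the titles. Among epidermal cells eYFP had 6 molecules in the mutant and 2 in the control.

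In GENCODE release M21 on GRCm38 all 6 are protein-coding genes. Id1 (ENSMUSG00000042745) lies at chr2:152736251-152737410 on the plus strand, Id2 (ENSMUSG00000020644) at chr12:25093799-25097140 on the minus strand and Id3 (ENSMUSG00000007872) at chr4:136143497-136145755 on the plus strand. Id4 (ENSMUSG00000021379) lies at chr13:48261228-48266026 on the plus strand. Smad6 (ENSMUSG00000036867) lies at chr9:63953076-64022059 on the minus strand and Smad7 (ENSMUSG00000025880) at chr18:75367529-75395935 on the plus strand. Id4 is overlapped by 2 genes of the minus strand, A330033J07Rik and Gm49291, while no annotated gene overlaps the other 5. Whether the authors' counting used strand is not given in the sources used here, so molecules counted to Id4 could include some of those transcripts if it did not.

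Bone morphogenetic proteins (BMPs) bind paired receptors that phosphorylate Smad1, Smad5 and Smad9, and these enter the nucleus with Smad4 and switch on Id1, Id2, Id3, Smad6 and Smad7 in many cell types. Id proteins carry a helix-loop-helix domain without the basic region that contacts DNA; they bind the E proteins Tcf3, Tcf4 and Tcf12 and keep them from pairing with tissue-specific partners such as MyoD in muscle. Smad6 and Smad7 close the loop, Smad6 mainly on BMP receptors and Smad7 on TGF-beta and BMP receptors alike. In embryonic skin BMP signalling is known to hold back hair placodes, and the dermal condensate under each placode makes BMP antagonists and ligands of its own.

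The stretches before the transcription starts of Id2, Id3, Id4 and Smad6 are shown because these genes are the targets of the phosphorylated Smads, and the letters those factors are known to read can be looked for in them. The RefSeq promoter table for GRCm38.p6 held 4 of the 6 members, each as 250 bases before and 50 bases after the start. Capitals mark GTCT, the Smad box, on either strand (AGAC on the printed strand) and GGCGCC, a GC-rich element bound by BMP-activated Smads. The Id2 stretch, chr12:25096254-25096342 on the minus strand, lies in an intron of the longest Id2 transcript and outside its exons. The 161 bases between this stretch and the RefSeq start lie in annotated Id2 exons and are not printed. The Id4 stretch is chr13:48260866-48261115 on the plus strand. The pair of 30-base windows of Id3, chr4:136143643-136143672 and chr4:136143741-136143770 on the plus strand, are centred on Smad boxes 166 and 68 bases before the RefSeq start, within the first exon of another Id3 transcript in GENCODE. The 30-base window of Smad6, chr9:64022045-64022074 on the minus strand, is centred on the palindrome GTCTAGAC, which has 4 bases before and 4 bases after the start.
Id2: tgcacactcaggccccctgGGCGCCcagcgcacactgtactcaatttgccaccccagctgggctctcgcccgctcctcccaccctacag
Id4: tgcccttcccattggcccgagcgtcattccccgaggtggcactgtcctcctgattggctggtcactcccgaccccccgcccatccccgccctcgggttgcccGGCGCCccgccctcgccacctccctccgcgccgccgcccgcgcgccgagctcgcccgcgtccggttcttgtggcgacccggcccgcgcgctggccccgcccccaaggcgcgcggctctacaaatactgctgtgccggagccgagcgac
Id3, distal box: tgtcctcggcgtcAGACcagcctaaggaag
Id3, proximal box: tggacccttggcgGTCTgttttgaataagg
Smad6: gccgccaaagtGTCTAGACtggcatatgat
In their windows of 300 bases, Id2 held 1 GTCT, Id3 held 3 and Id4 held 0, while both GTCT matches of Smad6 were the arms of its palindrome. GTCT on either strand is a common string, present in 88.0% of the 32851 promoters of that length in the table. GGCGCC, which reads the same on both strands and stood once in Id2 and once in Id4, was present in 11.9% of them. The palindrome GTCTAGAC was present in 70 promoters, or 0.213% of the table. The E-box CANNTG, the site of E proteins and their partners, was present once in Id2, once in Smad6 and in none of the other 2, against 72.3% of all promoters. These are matches of letters and were not tied to any binding measurement.

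After filtering, 8514 mutant cells and 11527 control cells remained, with medians of 6662 and 7442 unique molecular identifiers (UMIs, 1 for each captured RNA molecule) per cell. The libraries shared 48 of their barcodes, 39 of them among the barcodes past the filters on detected genes and mitochondrial UMIs. Cells were clustered with the 6 genes and the BMP pathway lists left out of the genes that drive the clustering. This gave 27 clusters, named by marker genes except for clusters 0 and 22. Of the named classes 9 reached 50 cells in both libraries: dermal-like, epidermal-like, muscle-like, endothelial-like, mural-like (pericytes and their kin), macrophage-like, mast-cell-and-other-leukocyte-like, Schwann-like and erythroid-like, called by the bare name from here. The 4592 mutant and 7369 control dermal cells carried all 8 dermal markers at 10 CPM or more. The libraries fill the dermal class from different clusters: clusters 1, 7 and 12 hold 1766, 1097 and 775 of the mutant cells, while the control cells lie mostly in clusters 2, 3, 4, 6, 8, 11, 13 and 15. Cluster 0 (576 mutant and 1384 control cells) also carried all 8 dermal markers but had the neuronal marker Prph and no dermal marker among its 10 leading genes, so it stays unnamed and is given by number. Melanoblast-like cells reached only 49 in the mutant library, and 110 mutant and 84 control cells formed a second unnamed cluster, number 22, with macrophage markers and Cd52.

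Levels are given as CPM, the UMIs of a gene over all UMIs of the class in that library. The 3′ method counts 1 UMI per captured molecule whatever the transcript's length, so levels were not scaled by length. How alike different genes were captured was not tested, so levels of different genes are set side by side only as counted.

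Dermal cells carried all 6 genes, Id3 and Id1 far above the rest. Id3 stood at 368 CPM in mutant dermis and 396 CPM in control dermis, from 10949 and 21515 UMIs. Id1 stood at 268 CPM in mutant dermis and 234 CPM in control dermis. Id2 stood at 88.8 CPM in mutant dermis and 106 CPM in control dermis. The order of these 3 was the same in both libraries. Id4 stood at 25.5 CPM (95% interval 23.7 to 27.4) in mutant dermis and 17.8 CPM (16.7 to 18.9) in control dermis. Smad7, the inhibitory Smad with the wider range of receptors, stood at 24.2 CPM (22.5 to 26.1) in mutant dermis and 22.1 CPM (20.9 to 23.4) in control dermis. Smad6, the BMP-selective one, was the lowest in both, at 3.67 CPM in mutant dermis and 3.77 CPM in control dermis. The intervals of Id4 and Smad7 overlapped in the mutant, while in the control Smad7 was above Id4.

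The ratios of mutant to control dermis were all within 1.5-fold. Id1 had a ratio of 1.14 (1.11 to 1.18), and Id4 had the largest at 1.44 (1.31 to 1.58). Id2 had a ratio of 0.842 (0.804 to 0.882) and Id3 a ratio of 0.930 (0.909 to 0.952). Smad7 had a ratio of 1.09 (0.996 to 1.201) and Smad6 a ratio of 0.972 (0.763 to 1.23), intervals that hold 1. Of the 5 members with a mean of at least 10 CPM, which leaves out Smad6, 0 passed 1.5-fold. Of the 7827 genes with such a mean 8.96% passed in either direction, 4.33% higher and 4.63% lower in the mutant. With 5 members, a count of 0 does not set them apart from that share. The median log2 ratio of those 5 members, with 1 CPM added to both levels, was 0.12, beside 0.01 over all such genes. The 4 Id genes together came to 750 CPM in mutant dermis and 753 CPM in control dermis, so their summed level was nearly the same while its makeup was not: Id3 gave 49.1% of these UMIs in mutant dermis and 52.6% in control dermis, and Id1 gave 35.7% and 31.1%.

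The dissociation and stress list (immediate-early genes and heat-shock genes that move during tissue dissociation) differed between the same cells. Its 14 genes summed to 826 CPM in mutant dermis and 458 CPM in control dermis, and 6 of the 9 with a mean of at least 10 CPM were past 1.5-fold higher in the mutant. Hemoglobin transcripts, which dermal cells do not make, summed to 1026 CPM in mutant dermis and 177 CPM in control dermis. Within dermal cells with few dissociation-list UMIs, Id1 stood at 222 CPM in the mutant and 218 CPM in the control, a ratio of 1.02. In those cells Id2 had a ratio of 0.758, Id3 of 0.862 and Smad7 of 1.03, while Id4 had 1.54 and so passed 1.5-fold. With hemoglobin left out of the totals the Id1 ratio was 1.15 and the Id4 ratio 1.44.

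To compare shares of cells at equal depth, each cell was thinned at random to 3000 UMIs, which left out 267 mutant and 233 control dermal cells with fewer. After thinning, Id3 was seen in 54.5% of mutant and 57.5% of control dermal cells, and Id1 in 44.8% of mutant and 42.5% of control dermal cells. Id2 was seen in 19.5% (18.3 to 20.7) of mutant and 23.7% (22.7 to 24.7) of control dermal cells, and Id4 in 6.77% (6.04 to 7.56) and 4.79% (4.31 to 5.31). Unthinned, Id2 was seen in 33.2% of mutant and 42.4% of control dermal cells, and Id4 in 12.2% and 11.05%. Macrophages, thinned alike and at median depths of 9260 mutant and 11298.5 control UMIs before thinning, showed Id1 in 0.461% of mutant and 2.65% of control cells, Id3 in 1.38% and 1.52%, and Id4 in 0 of 217 and 0 of 264 cells, counts that allow shares of up to 1.38% and 1.14%. The dermal shares of these 3 genes thus lay well above those of macrophages. Where the few macrophage molecules came from was not tested. Smad6 was seen in 1.13% of mutant and 1.23% of control dermal cells, beside the same counts of 0 in macrophages.

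Across single dermal cells the members were only loosely joined. Of the thinned cells, 23.3% in the mutant and 21.4% in the control held no UMI of any member, 28.1% and 29.4% held UMIs of 2 members, and 0 cells held all 6. Id3 was seen in 65.2% of mutant cells that held an Id1 UMI and in 45.8% of mutant cells that did not, and in 68.1% and 49.8% of such control cells. Pearson's r between thinned Id1 and Id3 UMIs was 0.26 over 4325 mutant cells and 0.31 over 7136 control cells, values that sparse counts keep low. Id4 and Smad7 had r between -0.03 and 0.04 with each other and with Id1, Id2 and Id3, in both libraries.

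**Figure D1:**
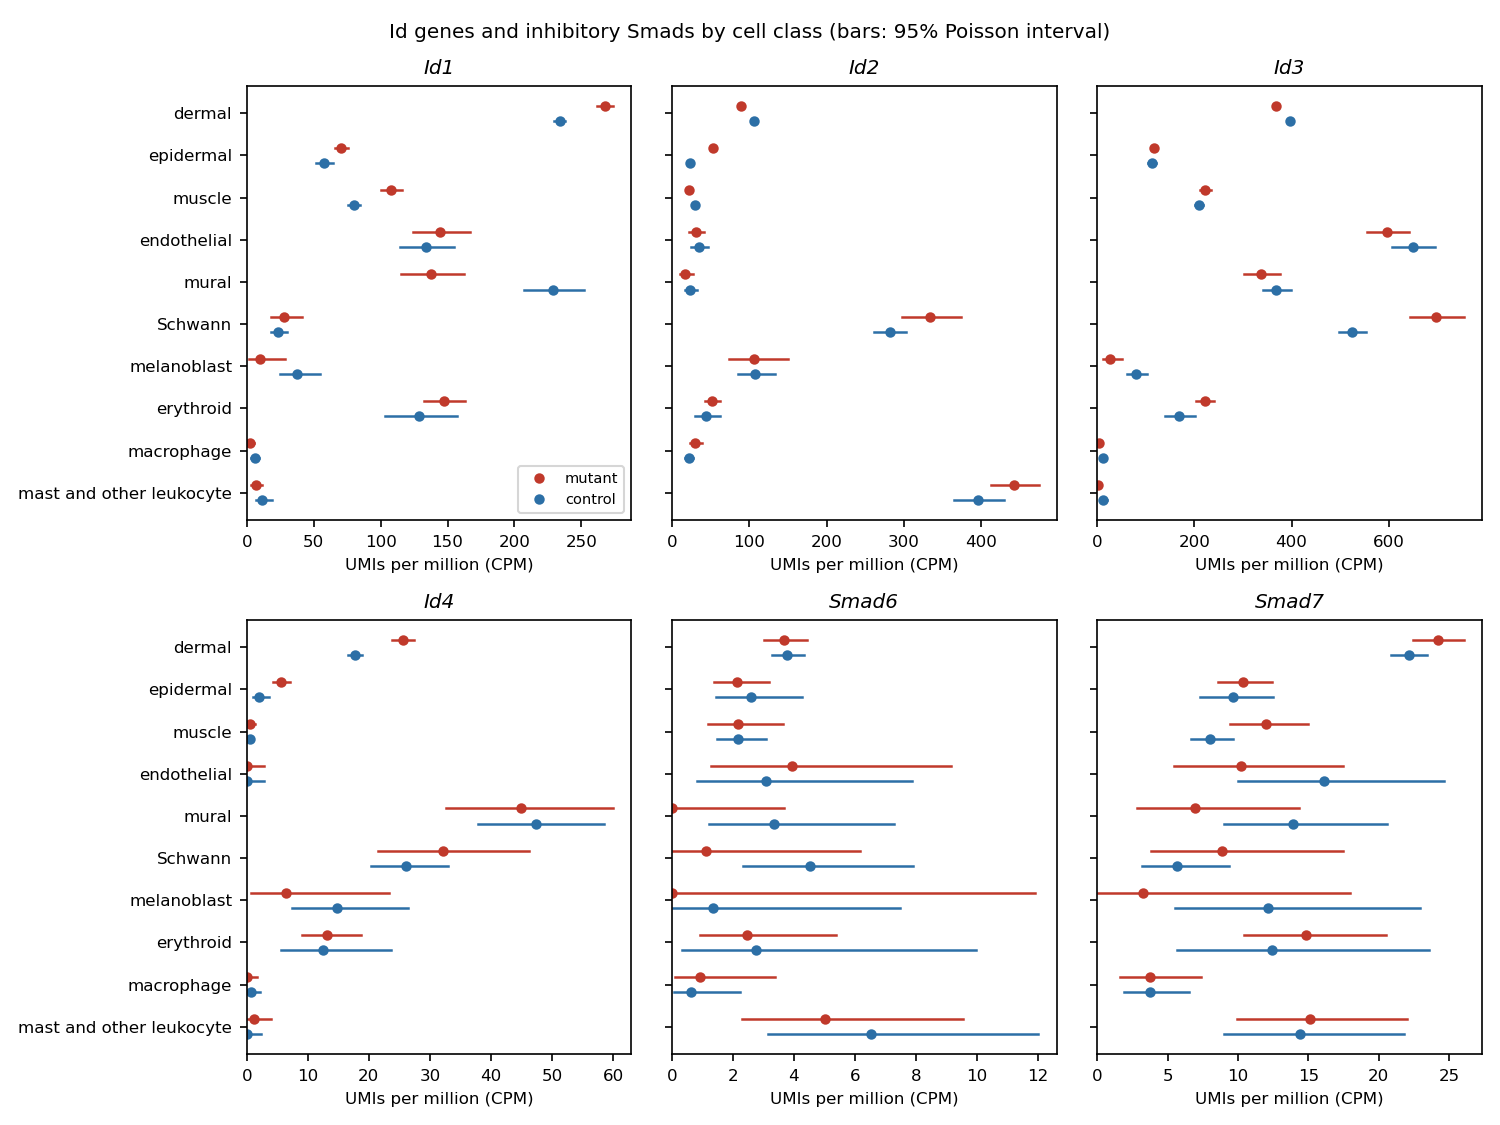
Level of each of the 6 genes in CPM (linear axis) in the named classes and in melanoblast-like cells. Mutant (red) lies above control (blue), with exact Poisson 95% intervals as bars. Id3 is at 368 CPM in mutant and 396 CPM in control dermis and at 12.4 CPM or less in leukocytes and macrophages, where Id2 is the leading Id gene.

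Id3 led the Id genes in 7 of the 9 named classes of both libraries, among them erythroid cells, which carried dermal markers as given below. Id2 led in macrophages and in mast cells and other leukocytes. Id3 was highest in Schwann cells, at 698 CPM (644 to 754) in the mutant library and 525 CPM (498 to 553) in the control library, and in endothelium, at 598 CPM (556 to 642) in the mutant and 649 CPM (606 to 695) in the control. The order of these 2 classes differs between the libraries. Dermal and mural cells came next, at 368 and 338 CPM in the mutant and 396 and 369 CPM in the control, with overlapping intervals within each library. Muscle followed with 222 CPM in the mutant and 210 CPM in the control, and epidermis with 117 and 112 CPM. Mast cells and other leukocytes held 2 Id3 UMIs, or 1.12 CPM, in the mutant and 19 UMIs, or 12.4 CPM, in the control.

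Among named classes Id1 was highest in dermal cells in the mutant, at 268 CPM, and shared the top in the control between dermal cells, at 234 CPM (230 to 238), and mural cells, at 228 CPM (207 to 252), whose intervals overlap. Endothelium stood at 144 CPM (124 to 167) in the mutant and 134 CPM (114 to 155) in the control. Muscle had 108 CPM in the mutant and 80.2 CPM in the control, and epidermis 70.6 and 58.0 CPM. Schwann cells, which had the highest Id3 of the mutant library, had only 27.7 CPM of Id1 in the mutant and 23.4 CPM in the control. Id1 and Id3 are thus parted in this lineage, and Id3 gave 63.9% of its Id UMIs in the mutant and 61.3% in the control.

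Id2, which natural killer and innate lymphoid cells are known to depend on, was led by mast cells and other leukocytes. It stood there at 443 CPM (412 to 475) in the mutant and 396 CPM (365 to 429) in the control and made up 98.0% and 94.2% of the Id UMIs. Of the 9 named classes Schwann cells came next, with 334 CPM in the mutant and 282 CPM in the control. Dermal cells followed at 88.8 and 106 CPM. Unnamed cluster 22 stood at 253 CPM in the mutant and 190 CPM in the control, and unnamed cluster 0 at 114 and 150 CPM. The thinned share of leukocytes with an Id2 UMI was 62.1% in the mutant and 63.1% in the control, and 90.7% and 90.3% unthinned. Macrophages carried 30.3 CPM in the mutant and 21.7 CPM in the control, so a high level was not common to all blood-derived classes.

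Id4, known from the brain as a brake on neural differentiation, was limited to fewer classes. Mural cells led with 44.8 CPM (32.7 to 59.99) in the mutant and 47.4 CPM (37.8 to 58.6) in the control. Dermal markers summed to 3173 CPM in mutant and 3745 CPM in control mural cells, above the 914 and 706 CPM of the mural markers. The part of dermal RNA in the Id levels of mural cells was not tested. Id4 itself stood at 25.5 CPM in mutant and 17.8 CPM in control dermal cells, below mural cells. Schwann cells had 32.2 CPM in the mutant and 26.1 CPM in the control, before dermal cells. Endothelial cells, which sit against the mural cells in vessels, had 0 Id4 UMIs in both libraries, where a count of 0 allows up to 2.36 CPM in the mutant and 2.30 CPM in the control. Muscle had 0.467 CPM in the mutant and 0.476 CPM in the control.

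Smad7 was highest in dermal cells among named classes, and higher still in unnamed cluster 0, at 39.3 CPM in the mutant and 29.98 CPM in the control. Leukocytes other than macrophages had 15.1 CPM in the mutant and 14.4 CPM in the control, and macrophages 3.73 CPM in both. Smad6 did not exceed 10 CPM in any class; its highest values were 9.72 CPM in the mutant and 7.61 CPM in the control cells of cluster 0. Erythroid cells showed dermis-like levels, 147 CPM of Id1 in the mutant and 128 CPM in the control, and their dermal markers summed to 3017 and 3679 CPM, beside 5646 and 7240 CPM in dermal cells, so their Id levels are not read as those of red cells.

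Over the 18 profiles made of 9 classes in 2 libraries, which share library and depth in sets of 9, Pearson's r of log2(CPM + 1) was 0.81 between Id1 and Id3 and -0.35 between Id1 and Id2. The profiles include erythroid and mural cells, which carried dermal markers as given above. The part of these profiles in the values of r was not tested. The genes with the most similar profile, out of those reaching 50 CPM in at least 1 profile, included Sparc (r of 0.98) and Lamb1 (0.97) for Id3. For Id1 they were Fdps (0.95), H19 (0.95) and Map1b (0.94), and for Id2 Lmo4 (0.91), Rsbn1 (0.90) and Asph (0.85). For Id4 they were Serpine2 (0.93), Fez1 (0.92) and Thbs2 (0.92). Smad7 had Ttc28 (0.84), Ssbp3 (0.82) and Tshz3 (0.81), and Smad6, at low counts, had Ttc28 (0.74), Epm2aip1 (0.71) and Emid1 (0.66).

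**Figure D2:**
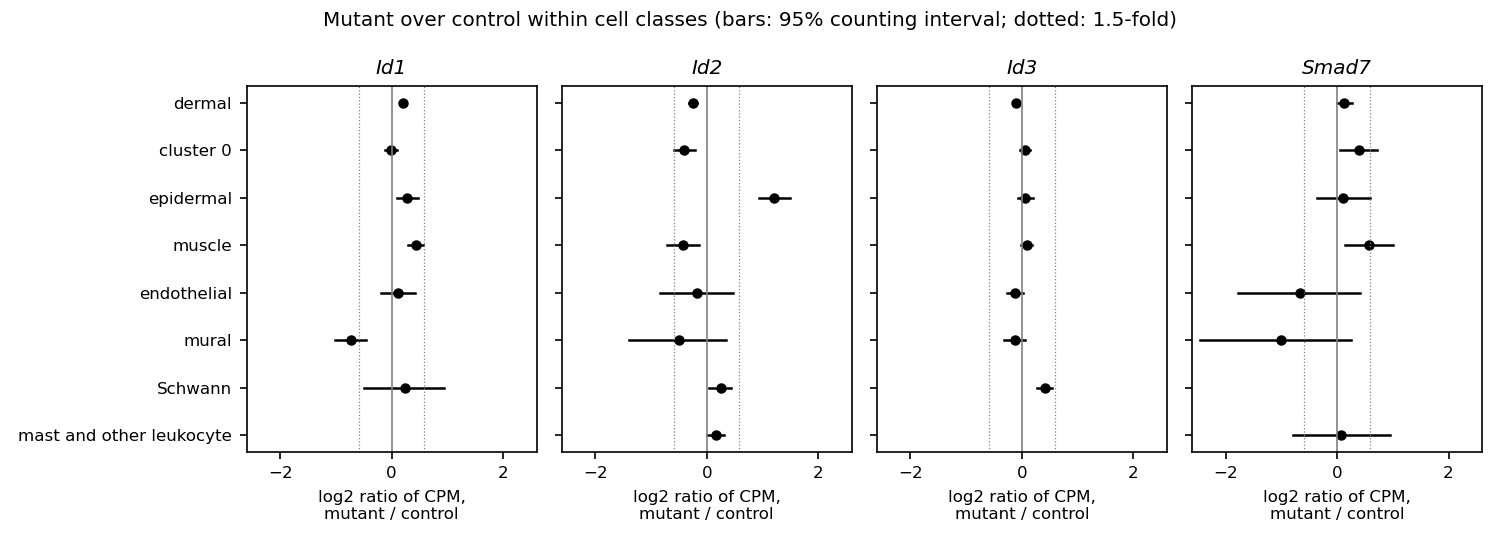
Ratio of mutant to control CPM (log2 axis) for Id1, Id2, Id3 and Smad7, with exact 95% intervals for counting error. Shown are dermal, epidermal, muscle, endothelial, mural, Schwann and mast and other leukocyte cells and cluster 0, where the mean is at least 10 CPM. Solid lines mark a ratio of 1 and dotted lines 1.5-fold. Epidermal Id2 lies at 2.31, while the dermal ratios of these genes lie between 0.842 and 1.14.

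In the epidermis Id2 was higher in the mutant. Id4 was higher too, at far lower counts and not in every alternative processing given below. Id2 had 592 UMIs in mutant epidermis and 133 in control epidermis, or 52.9 CPM (48.8 to 57.4) and 22.9 CPM (19.2 to 27.1), a ratio of 2.31 (1.91 to 2.81). Id1, with a ratio of 1.22 (1.07 to 1.39), stood at 70.6 CPM in the mutant and 58.0 CPM in the control. Id3, at 117 CPM in the mutant and 112 CPM in the control, had a ratio of 1.04 (0.948 to 1.15), and Smad7, at 10.4 and 9.64 CPM, had a ratio of 1.08 (0.776 to 1.51). Of these 4 members past 10 CPM on average, 1 passed 1.5-fold, Id2, which was higher in the mutant; of all 7011 genes tested in the epidermis 5.61% passed in either direction, 3.27% higher and 2.34% lower in the mutant. Among the members below that mean, Id4 had 62 UMIs in mutant and 12 in control epidermis, or 5.55 and 2.07 CPM, a ratio of 2.68 (1.43 to 5.47), and Smad6 had 2.15 and 2.58 CPM.

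After thinning, 13.6% (11.9 to 15.6) of 1370 mutant and 4.55% (2.97 to 6.65) of 549 control epidermal cells held an Id2 UMI, against 29.6% and 16.2% unthinned, and 22 mutant and 6 control cells were too shallow to enter. Mural cells, which had the lowest Id2 level in the mutant library, held one in 5.10% of mutant and 6.25% of control cells after thinning. The control share in epidermis was thus not above that of mural cells, while the mutant share was. Control cells had the deeper median, 9784 UMIs beside 7659 in mutant epidermis.

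The difference in Id2 was present in each division of the epidermis. In cells with a Krt1 or Krt10 UMI, keratins of the suprabasal layer, Id2 stood at 60.8 CPM in 583 mutant cells and 23.0 CPM in 260 control cells, a ratio of 2.64 (2.02 to 3.49). In cells without such a UMI it stood at 46.7 CPM in 809 mutant cells and 22.8 CPM in 295 control cells, a ratio of 2.05 (1.56 to 2.73). Dkk4, a Wnt target that marks hair placodes, was seen in 0 of 1392 mutant cells, which allows a share of up to 0.216%, and in 81 of 555 control cells, and without those 81 cells the Id2 levels were 52.9 CPM in the mutant and 24.3 CPM in the control, a ratio of 2.18 (1.79 to 2.68). Leukocyte markers, which go with high Id2, summed to 3.94 CPM in mutant epidermis, with 3 of 8 at 0, and to 1.03 CPM in control epidermis, with 6 of 8 at 0. Dermal markers summed to 353 and 463 CPM there, the stress list to 134 and 125 CPM and hemoglobin to 1076 and 142 CPM. With hemoglobin left out of the totals the Id2 ratio was 2.31.

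Within control epidermis the Dkk4 cells carried less Id1 than the others. Id1 stood at 31.0 CPM in cells with a Dkk4 UMI and 63.0 CPM in cells without, a ratio of 0.491 (0.321 to 0.724). Id3 showed 103 CPM with and 114 CPM without, a ratio of 0.902 (0.717 to 1.13), and Id2 15.5 and 24.3 CPM, a ratio of 0.638 (0.339 to 1.11), both with intervals that hold 1. These are 81 cells of 1 library.

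**Figure D3:**
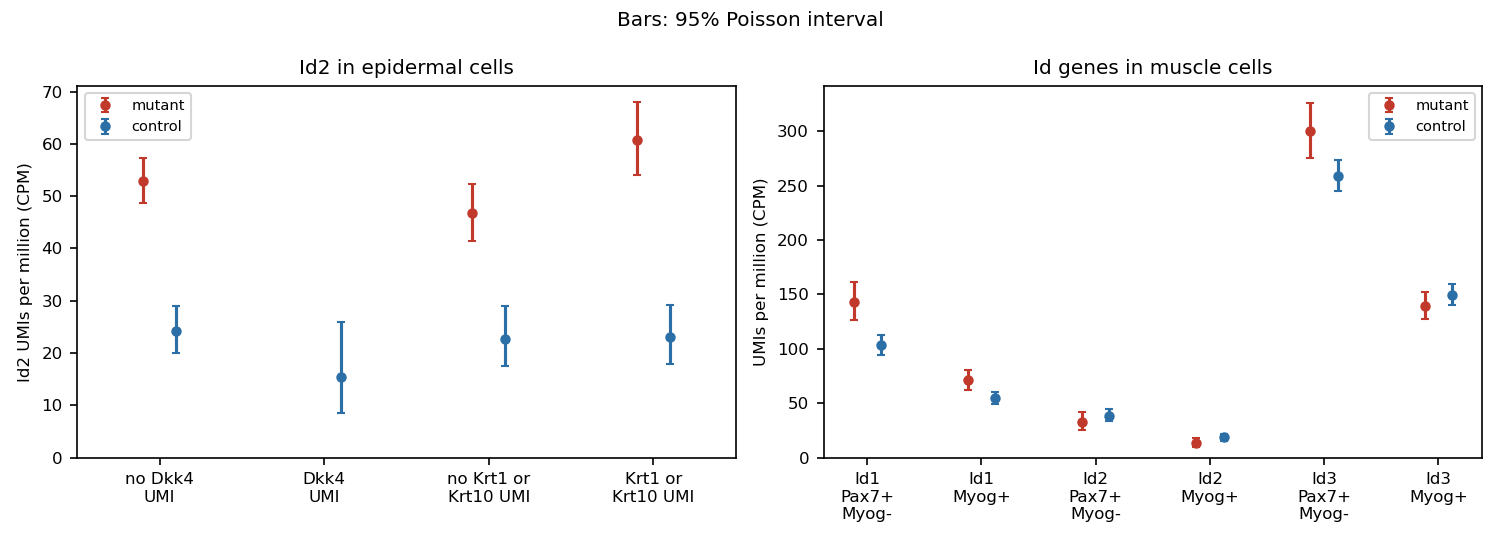
CPM of Id2 in divisions of the epidermis and of Id1, Id2 and Id3 in divisions of muscle. Bars are exact Poisson 95% intervals, mutant (red) before control (blue). Epidermal Id2 is higher in the mutant with and without a Krt1 or Krt10 UMI, and Id1, Id2 and Id3 are higher in Pax7 cells than in Myog cells of both libraries.

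In muscle Id1, Id2 and Id3 followed the stage of the cells in both libraries. Cells with a Pax7 UMI and no Myog UMI, progenitors of the lineage, numbered 189 in the mutant and 322 in the control, and cells with a UMI of Myog, the factor that starts terminal differentiation, numbered 376 and 450. In the mutant Id1 stood at 143 CPM in Pax7 cells and 71.0 CPM in Myog cells, a ratio of 2.02 (1.69 to 2.41), and in the control at 103 and 54.4 CPM, a ratio of 1.90 (1.66 to 2.18). Id3 stood at 299.9 and 139 CPM in the mutant, a ratio of 2.15 (1.90 to 2.44), and at 259 and 149.7 CPM in the control, a ratio of 1.73 (1.59 to 1.88). Id2 had ratios of 2.38 in the mutant and 2.07 in the control, and Smad7 ratios of 1.83 (1.08 to 3.11) and 2.14 (1.37 to 3.39). These 4 genes were thus higher in progenitors in both libraries. Whether their ratios differ between the libraries was not tested, and the intervals for Id3 do not overlap. Smad6, at few UMIs, had ratios of 0.686 (0.117 to 2.86) in the mutant and 2.43 (1.06 to 5.88) in the control. Id4 had 1 UMI in both mutant groups of cells and 2 in both control groups. How many of all genes differ as much between these stages was not counted. Between the libraries, muscle as a whole had an Id1 ratio of mutant to control of 1.35 (1.22 to 1.48), an Id2 ratio of 0.746 (0.612 to 0.905) and a Smad7 ratio of 1.49 (1.10 to 2.004). In the same muscle cells the stress list summed to 322 CPM in the mutant and 249 CPM in the control and hemoglobin to 1815 and 489 CPM, and their part in these ratios was not tested. Of the 4 members past 10 CPM on average 0 passed 1.5-fold there, beside 2.81% of all genes tested in muscle.

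Other classes had fewer cells and wider intervals. In mural cells 2 of 5 members past the mean were beyond 1.5-fold, both lower in the mutant, beside 12.4% of all genes in either direction and 5.79% lower: Id1 stood at 137 CPM in 99 mutant and 228 CPM in 128 control cells, a ratio of 0.602 (0.492 to 0.731), and Smad7 at 6.97 and 13.9 CPM from 7 and 25 UMIs, a ratio of 0.501 (0.183 to 1.19). The dermal markers of these cells were lower in the mutant too, as given above, and their part in these ratios was not tested. In endothelium 1 of 4 passed, Smad7 at 10.2 CPM in the mutant and 16.1 CPM in the control, with an interval of the ratio from 0.291 to 1.33, beside 12.8% of all genes in either direction and 6.76% lower. Schwann cells had an Id3 ratio of 1.33 (1.21 to 1.46) and an Id2 ratio of 1.19 (1.03 to 1.36), short of 1.5-fold, where 11.7% of all genes passed it. Their dermal markers summed to 1085 CPM in the mutant and 764 CPM in the control, and hemoglobin to 9097 and 1060 CPM; the part of either was not tested. Leukocytes other than macrophages had an Id2 ratio of 1.12 (1.004 to 1.24).

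**Figure D4:**
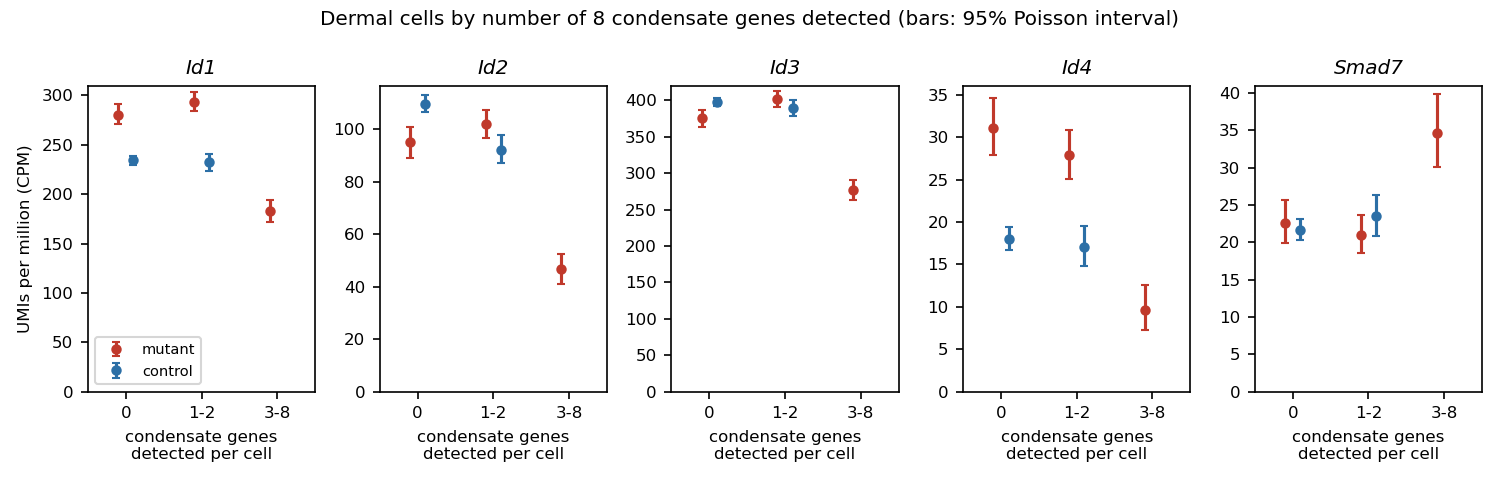
CPM of Id1, Id2, Id3, Id4 and Smad7 in dermal cells parted by the number of 8 condensate genes with a UMI. Bars are exact Poisson 95% intervals, mutant (red) and control (blue). In mutant cells with 3 or more, Id1, Id2, Id3 and Id4 are lower and Smad7 is higher than in mutant cells with none; the control has 11 such cells.

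Within mutant dermis the 4 Id genes and Smad7 differed in opposite directions when cells were divided on a list of condensate genes, Foxd1, Sox2, Sox18, Gal, Cdkn1a, Tbx18, Prdm1 and Trps1. Of the mutant dermal cells 902 held UMIs of 3 or more of them, 1969 of 1 or 2 and 1721 of none, while the control had 11, 1555 and 5803 such cells. In mutant cells with 3 or more, Id1 stood at 183 CPM, Id2 at 46.6 CPM, Id3 at 277 CPM and Id4 at 9.64 CPM, against 281, 94.96, 375 and 31.1 CPM in mutant cells with none. All 4 Id genes were thus lower, with ratios of 0.652 (0.607 to 0.700) for Id1, 0.491 (0.427 to 0.562) for Id2, 0.739 (0.696 to 0.783) for Id3 and 0.310 (0.228 to 0.413) for Id4. Smad7 went the other way, at 34.7 CPM in cells with 3 or more and 22.6 CPM in cells with none, a ratio of 1.53 (1.26 to 1.86). Smad6 stood at 3.85 and 4.15 CPM, with an interval of the ratio from 0.530 to 1.58. How many of all genes differ as much was not counted, here or in the further divisions of the dermis below.

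Mutant cells with 1 or 2 condensate genes did not share these differences of the Id genes and Smad7. They had 294 CPM of Id1, 102 CPM of Id2, 401 CPM of Id3, 27.9 CPM of Id4 and 21.01 CPM of Smad7, close to cells with none. Median depth was 5811 UMIs in cells with 3 or more and 5886 in cells with none, and the stress list summed to 773 and 814 CPM. After thinning all cells to 3000 UMIs before counting the condensate genes, 517 mutant cells still held 3 or more, with 150 CPM of Id1, 29.0 CPM of Id2, 217 CPM of Id3, 5.80 CPM of Id4 and 49.6 CPM of Smad7, against 283, 90.7, 382, 32.0 and 24.8 CPM in cells with none. The 11 control cells are too few to set beside them.

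Dermal condensates are known to leave the cell cycle, so the same division was repeated, by a choice made after these values were seen, within cells of 1 proliferative state. Among mutant cells without a UMI of 8 G2M genes, those with 3 or more condensate genes (333 cells) had 143 CPM of Id1, 25.1 CPM of Id2, 216 CPM of Id3 and 7.53 CPM of Id4, against 259, 78.5, 369 and 49.9 CPM in the 450 cells with none. Smad7 stood at 53.3 CPM in these cells and 20.4 CPM in those with none, a ratio of 2.61 (1.80 to 3.84). Among cells with 2 or more G2M UMIs the ratios of the Id genes were 0.702 for Id1, 0.538 for Id2, 0.810 for Id3 and 0.425 for Id4, and that of Smad7 was 1.10 (0.850 to 1.43). The lower Id levels were therefore present in both states, whereas the interval of the Smad7 ratio held 1 in the dividing state; the difference between those 2 Smad7 ratios was not tested.

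The BMP genes of the same cells differed as well. Mutant cells with 3 or more condensate genes had 66.2 CPM of the ligand Bmp4, 30.1 CPM of the ligand Bmp7 and 19.8 CPM of the ligand Bmp2, against 17.1, 6.32 and 37.3 CPM in cells with none. Smad1, a transducer, stood at 94.1 and 44.4 CPM, and follistatin (Fst), an antagonist of activins and BMPs, at 56.1 and 31.3 CPM. Tcf4, an E protein that Id proteins bind, stood at 1084 CPM in cells with 3 or more and 494 CPM in cells with none. The cells with the lower Id levels thus carried more of Bmp4 and Bmp7.

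Low Id levels beside Bmp4 were found in both libraries. In dermal cells with a Bmp4 UMI (576 mutant and 1644 control cells) Id1 stood at 205 CPM in the mutant and 183 CPM in the control, against 276 and 250.3 CPM in cells without one. The ratios of cells with to cells without were 0.741 (0.686 to 0.801) in the mutant and 0.729 (0.697 to 0.762) in the control for Id1. Id2 had ratios of 0.674 in mutant and 0.801 in control dermis, Id3 of 0.843 and 0.806, and Id4 of 0.608 and 0.635. Smad7 had 1.48 (1.21 to 1.81) in the mutant and 1.03 (0.904 to 1.18) in the control.

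Cells with a UMI of Lef1, a mediator and target of Wnt signals high in the upper dermis, were low in Id4 as well. Their Id4 ratio to cells without was 0.357 (0.275 to 0.457) in the mutant and 0.481 (0.390 to 0.589) in the control, the lowest of the 6 members in both libraries. Id1 had 0.744 (0.701 to 0.788) in the mutant and 0.864 (0.826 to 0.904) in the control, and Smad7 1.48 (1.25 to 1.74) and 1.06 (0.919 to 1.22).

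A Hedgehog readout in the same cell went with smaller differences. Mutant dermal cells with a UMI of the core Hedgehog target list, which includes Ptch1, Gli1 and Hhip (3409 cells), had 272 CPM of Id1, 89.7 CPM of Id2, 359 CPM of Id3, 26.5 CPM of Id4 and 24.2 CPM of Smad7. Those without (1183 cells) had 251 CPM of Id1, 85.6 CPM of Id2, 403 CPM of Id3, 21.8 CPM of Id4 and 24.2 CPM of Smad7. No member differed here by more than 1.22-fold apart from Smad6, whose ratio of 1.34 had an interval from 0.805 to 2.37. Cells with few UMIs are less likely to show a Hedgehog UMI, and the median depths were 6487 UMIs with and 4971 without.

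The 3 main mutant clusters followed this division only in part. Cluster 1, led by Hhip and holding 1766 mutant cells, had 39.8 CPM of Id4 and 286 CPM of Id1. Cluster 7, with Gal, Foxd1 and Cdkn1a among its leading genes, had 12.5 CPM of Id4, 197 CPM of Id1, 56.4 CPM of Id2 and the highest Smad7 of the 3 mutant clusters at 34.3 CPM (29.6 to 39.5). Cluster 12, also led by Foxd1 and Gal, had 9.76 CPM of Id4 but 304 CPM of Id1 and 20.4 CPM of Smad7, so a low Id4 was shared by clusters 7 and 12, whereas a lower Id1 and a higher Smad7 were not.

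Where a dermal cluster held at least 50 cells of both libraries, Id2 was lower in the mutant or its interval held 1. The ratio of mutant to control was 0.397 (0.275 to 0.556) in cluster 2, 0.516 (0.404 to 0.652) in cluster 8, 0.752 in cluster 6, 0.807 in cluster 3 and 0.937 in cluster 11. Id1 had ratios on both sides of 1 in these clusters, 0.757, 0.850 and 0.785 in clusters 2, 3 and 8 and 1.22 and 1.26 in clusters 6 and 11. The interval of the Id4 ratio held 1 in all 5 clusters. Smad7 was past 1.5-fold higher in cluster 8, at 1.71 (1.14 to 2.52), while its ratios of 0.755, 0.723 and 0.763 in clusters 2, 3 and 6 and 1.07 in cluster 11 had intervals that held 1. The share of all genes past 1.5-fold either way was 18.7% in cluster 2, 10.9% in cluster 8, 16.3% in cluster 6, 17% in cluster 3 and 8.5% in cluster 11. In unnamed cluster 0, with few Ptch1 UMIs at 10.8 CPM in the mutant and 3.80 CPM in the control, Id2 had a ratio of 0.758 (0.667 to 0.859), Id4 of 0.725 (0.548 to 0.946) and Smad7 of 1.31 (1.03 to 1.65). There 0 of 5 members passed 1.5-fold, beside 8.09% of all genes.

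Ligands and antagonists of the BMP pathway differed between the libraries more than the 6 members did. In dermis Bmp2 stood at 36.4 CPM in the mutant and 10.7 CPM in the control, a ratio of 3.40 (3.07 to 3.77), and Bmp4 at 27.1 and 51.6 CPM, a ratio of 0.525 (0.485 to 0.568); these were the 2 of 9 ligands with a mean of at least 10 CPM. Of 13 antagonists 7 reached that mean: Fst was higher in the mutant, at 37.8 and 7.62 CPM, while Grem1 and Nbl1 were among those lower past 1.5-fold. Grem1, gremlin, stood at 5.99 CPM in mutant and 31.1 CPM in control dermis. The most abundant antagonist-related gene, Fstl1, stood at 520 CPM in the mutant and 377 CPM in the control, within 1.5-fold. The antagonists thus moved in both directions in dermis, with a median log2 ratio of 0.04 over the 7.

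Receptors and transducers were nearer to 1. Of 6 receptors and co-receptors past the mean, the co-receptor Rgmb was past 1.5-fold at 70.6 CPM in the mutant and 37.7 CPM in the control, and 5 were within it. Of 5 Smad transducers, Smad3 of the TGF-beta branch was higher at 17.2 and 6.37 CPM, the BMP-activated Smad5 was lower at 26.8 and 43.4 CPM, and Smad4, the most abundant, stood at 68.6 and 74.6 CPM. The 6 intracellular inhibitors past the mean were all within 1.5-fold, among them Ppm1a at 60.8 CPM in the mutant and 60.5 CPM in the control. The other BMP targets past the mean, Bambi and Tob1, were within it too, with Bambi at 13.3 and 16.7 CPM. Of 3 TGF-beta targets past the mean, Tgfbi was lower at 11.2 CPM in the mutant and 31.1 CPM in the control, while Pmepa1, the most abundant, stood at 104 and 131 CPM.

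Transcripts of the partners of the Id proteins were counted in the same cells, and no protein was measured. Of the E proteins Tcf4 stood at 686 CPM in mutant and 716 CPM in control dermis, Tcf3 at 104 and 106 CPM, and Tcf12, past 1.5-fold lower, at 158 and 239 CPM. In counted transcripts, Tcf4 alone was near the sum of the 4 Id genes, 750 and 753 CPM. Of the tissue factors of the same family, Hand2 stood at 45.7 CPM in the mutant and 11.2 CPM in the control and Twist1 at 391 and 681 CPM, both past 1.5-fold, in opposite directions.

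In epidermis 2 ligands reached the mean and both were lower in the mutant. Bmp2 had 10 UMIs in mutant and 165 UMIs in control epidermis, or 0.894 and 28.4 CPM, and Bmp7 stood at 54.9 and 84.0 CPM. Sostdc1, an antagonist of BMP and Wnt signals, stood at 381 CPM in mutant and 131 CPM in control epidermis, a ratio of 2.92 (2.70 to 3.15), and Fstl1 at 64.4 and 29.1 CPM. Fst, at 45.3 and 88.7 CPM, Nbl1, at 7.96 and 23.9 CPM, and Twsg1, at 27.6 and 43.4 CPM, were lower, so all 5 antagonists past the mean were past 1.5-fold, 2 higher and 3 lower. Of 7 receptors, Acvr2a (26.3 and 11.9 CPM) and Rgma (48.3 and 28.6 CPM) were higher and Rgmb (39.4 and 88.5 CPM) was lower. The 4 Smad transducers, 3 E proteins and 4 intracellular inhibitors past the mean were all within 1.5-fold. Cells with a Dkk4 UMI, seen only in control epidermis, were kept in all these sums. Their part in the differences of this paragraph was not tested.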

How the data were processed

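The deposited matrices hold raw UMI counts per gene and barcode, made by the authors with Cell Ranger 5.0.1 against mm10, per the submitters' processing notes; other settings are not given in the sources used here. Per the labels' protocols, skin was dissociated in trypsin, sorted with DAPI, and the libraries were made side by side and shared a NovaSeq lane. The mutant library held 11909 barcodes and 73809828 UMIs and the control library 13566 barcodes and 109629368 UMIs, with a lowest total of 500 in both. The labels number no separate cultures or animals.

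Barcodes with at least 1000 detected genes and at most 10% mitochondrial UMIs were kept, 8783 mutant and 12120 control. Scrublet, run per library in scanpy 1.11.5 at an expected doublet share of 8%, removed 269 mutant and 593 control barcodes (3.06% and 4.89%). With counts brought to 10000 in each cell and logged, 2000 variable genes, without the members and BMP-list genes among them, gave 30 principal components, 15 neighbours and Leiden clusters at resolution 1. A cluster was named by its best of 13 marker lists with at least 3 markers at 10 CPM, unless its leading genes went against the name.

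UMIs were summed per class and library. CPM carry exact Poisson 95% intervals, shares exact Clopper-Pearson intervals, and ratios exact conditional binomial intervals. PCR copies are collapsed by UMI, and all intervals and limits for a count of 0 (3 counts) cover counting error only. Background shares cover genes with a mean of both libraries of at least 10 CPM, at a ratio past 1.5-fold. Named beside the members are list genes past 1.5-fold at that mean, the most abundant of each role and the 3 genes most like each member. Some genes that this rule names are not reported here. The members, the lists and this rule were chosen with earlier results of these data known. The scripts were tested on simulated data. Alternatives were other cell filters, doublets kept, a class per cell, thinning, cells weighted alike, TMM scaling, hemoglobin out of totals, low-stress cells, cells without a G2M UMI, the pseudocount and the low-value filter. Gene coordinates come from GENCODE M21 (32158 of 32286 features matched), sequences from the RefSeq promoter table for GRCm38.p6.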

Additional observations from a re-analysis of the deposited data

Results flagged for a closer look

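Several members moved in opposite directions between cell classes, each with a 95% counting interval that excludes a ratio of 1 and with at least 1 of the pair past 1.5-fold. None of these differences between classes was tested, since each group has 1 library. The share of all genes that meets the same rule was not counted, so these pairs do not set the members apart from other genes. Id2 had a ratio of mutant to control of 2.31 in epidermis, against 0.842 in dermis and 0.746 in muscle. Id1 had ratios of 1.14 in dermis, 1.22 in epidermis and 1.35 in muscle, against 0.602 in mural cells, which rest on 99 mutant and 128 control cells and carried dermal markers at 3173 and 3745 CPM. Id3 had ratios of 1.33 in Schwann cells and 1.31 in erythroid cells, against 0.355 in macrophages and 0.0901 in mast cells and other leukocytes. The last 2 come from few Id3 molecules, 9 in mutant and 38 in control macrophages, and 2 and 19 in the other leukocytes. Dermal markers, which go with high Id3, summed to 62.5 CPM in mutant and 148 CPM in control macrophages and to 47.0 and 161 CPM in the other leukocytes. They summed to 1085 and 764 CPM in Schwann cells and to 3017 and 3679 CPM in erythroid cells, whose Id levels are not read as those of red cells. The part of these molecules in the ratios was not tested.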

How the results depend on the processing

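No paired analysis was possible because each group has 1 library, and no library could be left out. The dermal count past 1.5-fold, 0 as reported, was 1 among cells without a G2M UMI and 1 among cells low in dissociation genes, Id4 in both. The epidermal count, 1 as reported, was 2 with no low-value filter, which adds Id4. Among epidermal cells without a G2M UMI the median log2 ratio was -0.12, against 0.19 as reported, and the Id4 ratio was 0.656, against 2.68; the cause was not tested. Over 11 alternatives the dermal ratios ran from 1.02 to 1.22 for Id1, from 0.692 to 0.880 for Id2, from 0.862 to 1.03 for Id3, from 1.15 to 1.54 for Id4 and from 1.03 to 1.48 for Smad7. The lowest Id1, Id2 and Id4 ratios came from the dermal clusters with at least 50 cells of both libraries, and the highest Smad7 from cells without a G2M UMI. Over 10 alternatives epidermal Id2 stayed past 1.5-fold, from 2.18 to 2.78, while Id1 ran from 0.914 to 1.24 and Id3 from 0.918 to 1.10. Adding cluster 0 to the dermis (Id4 at 1.27), taking only shared clusters and leaving out cells with a Dkk4 UMI were chosen after the data were seen. Leaving out epidermal cells with a hemoglobin UMI would have kept 5 mutant and 148 control cells, and no value was taken. Smad6 and epidermal Id4 rest on few molecules, so that depth limits them most.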

Other observations

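In the unnamed cluster 22, with macrophage markers and Cd52, Id1 stood at 52.0 CPM in 110 mutant cells and 17.5 CPM in 84 control cells, a ratio of 2.98 (1.67 to 5.56). Id3 stood at 63.9 CPM in the mutant and 29.8 CPM in the control cells, a ratio of 2.14 (1.34 to 3.49). In the same cells the dermal markers, which go with high Id1 and Id3, summed to 231 and 51.4 CPM, and their part in these ratios was not tested.

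Melanoblast-like cells, 49 mutant and 77 control, carried Id2 at 107 CPM in the mutant and 108 CPM in the control, and Id1 at 9.69 and 37.7 CPM.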
